A study of Saccharomyces cerevisiae with 8 samples.

Results

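The genes described here encode the tricarboxylic acid (TCA) cycle, the glyoxylate cycle, the pyruvate dehydrogenase complex and the enzymes that feed or drain them in budding yeast, Saccharomyces cerevisiae. They are 33 named genes out of the 5656 genes that had a probe set with a single gene symbol on the array. Each was found by its symbol in the platform annotation, and each had 1 probe set. By the usual location of the protein, 22 are mitochondrial, 8 cytosolic and 3 peroxisomal. None lies on chromosome VIII.

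RNA came from 8 preparations of haploid yeast derived from W303a, 1 array each, and the labels leave unclear whether the 4 of a genotype are separate isogenic strains or cultures of 1 strain. The study set a mutant of eIF5A, a translation factor, against its normal form. Cells labelled V81G carry disruptions of both yeast eIF5A genes, hyp2 and anb1, and live on plasmid-borne human EIF5A1 with the V81G point mutation, which per the labels makes growth distinctly temperature sensitive. Cells labelled wild type carry the same disruptions and live on plasmid-borne human EIF5A1 of wild-type sequence. All were grown at 25 °C, the permissive temperature, to early logarithmic phase. Values are the deposited RMA intensities, a background-corrected and normalised summary of several short probes per transcript, and are given here on the log2 scale. Differences are V81G minus wild type with their standard error (SE), so 1 unit is a 2-fold difference in intensity. Precision is limited by the number of arrays, 4 per group. In RNA from whole cultures, fewer cells that express a gene and less RNA per cell cannot be told apart.

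Probes for HYP2 read 11.83 to 12.35 in the arrays labelled V81G and 15.41 to 15.43 in those labelled wild type, and probes for ANB1 read 13.92 to 14.42 and 13.93 to 14.23. Both genes are described as disrupted, so these levels go against the labels and the groups are called by their labels throughout. By the labels these are haploid a cells, in which genes specific to alpha cells should be low. The mating-type markers were mixed and in part went against that. MF(ALPHA)1, the alpha-factor gene of alpha cells, read at least 13.26 in all 8 arrays. BAR1 and AGA2, genes of a cells, averaged 8.81 and 8.57 in the arrays labelled V81G and 8.58 and 8.25 in those labelled wild type. MFA1 and MFA2, the a-factor genes of a cells, were well above those, at 10.47 and 11.71 in V81G and 10.42 and 11.40 in wild type, and MF(ALPHA)2 of alpha cells averaged 9.16 in V81G and 8.80 in wild type. SAG1 and STE3 of alpha cells averaged 13.17 and 11.47 in V81G and 11.40 and 11.21 in wild type. STE2 and STE6 of a cells averaged 9.26 and 9.61 in V81G and 9.00 or less in wild type (8.11 and 9.00). SAG1, STE2 and STE6 were higher in V81G, by 1.77 ± 0.13, 1.14 ± 0.13 and 0.61 ± 0.17. MF(ALPHA)1 was lower, by 0.60 ± 0.32, with overlapping groups and a limma adjusted p of 0.252, not under 0.05. With the replicate number as a block its adjusted p was 0.0242. The rest had smaller positive differences that did not pass. The means of all 4 alpha-specific genes read spanned 9.16 to 13.86 in V81G and 8.80 to 14.47 in wild type. Those of the 6 a-specific genes spanned 8.57 to 11.71 in V81G and 8.11 to 11.40 in wild type. The dimmest 25% of probe sets by mean lay under 9.03. The run sheets give 2 hybridization days, the first for replicates 1 and 2 of both groups and the second for replicates 3 and 4, called day 1 and day 2 here. On day 1 the arrays labelled V81G ran on fluidics station 2 and those labelled wild type on station 1, so on that day station and genotype cannot be told apart.

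The TCA cycle oxidises acetyl-CoA in the mitochondrial matrix and passes the electrons to the respiratory chain. Pyruvate dehydrogenase supplies the acetyl-CoA from pyruvate. Yeast growing on glucose ferments and keeps many of these genes repressed, and it also uses the early part of the cycle to make the alpha-ketoglutarate from which glutamate is built. Several steps have isoenzymes outside the mitochondrion: peroxisomal and cytosolic forms serve the glyoxylate cycle, gluconeogenesis and the supply of NADPH. In cells with damaged mitochondria the Rtg factors are known to sustain CIT1, ACO1, IDH1 and IDH2 and to induce CIT2, while the Hap complex drives many respiratory genes, including members of the cycle.

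In the arrays labelled V81G, 16 of the 33 genes fell and 4 rose (limma with Benjamini-Hochberg adjustment over 9275 probe sets, adjusted p under 0.05), and 13 did not pass. Across all 5656 genes 12.3% fell and 9.21% rose. Counts by the location of the protein are given as a description and were not tested. Of the 22 mitochondrial members 15 fell and none rose, with a median difference of -0.76, and 3 of them (IDH1, IDH2 and CIT3) had positive differences. Of the 8 cytosolic members 4 rose and 4 had negative differences that did not pass, with a median of 0.24, and of the 3 peroxisomal members 1 fell. The median of all 5656 genes was -0.08. The arrays of the groups did not overlap for 22 members, 18 of them lower and 4 higher in V81G, where 16.7% and 11.5% of all genes were lower and higher without overlap, together 28.1%. With the hybridization day as a block 18 members fell and 4 rose, where 18.3% and 12.5% of all genes did (together 30.7%). Blocking on the replicate number gave 16 and 4, where 13.7% and 9.95% of all genes did (together 23.7%). The number of fallen members was 10 when V81G 4, wild type 1 or wild type 4 was left out. Over all 5656 genes 552, 452 and 442 fell in those fits, against 696 with all arrays.

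**Figure D1:**
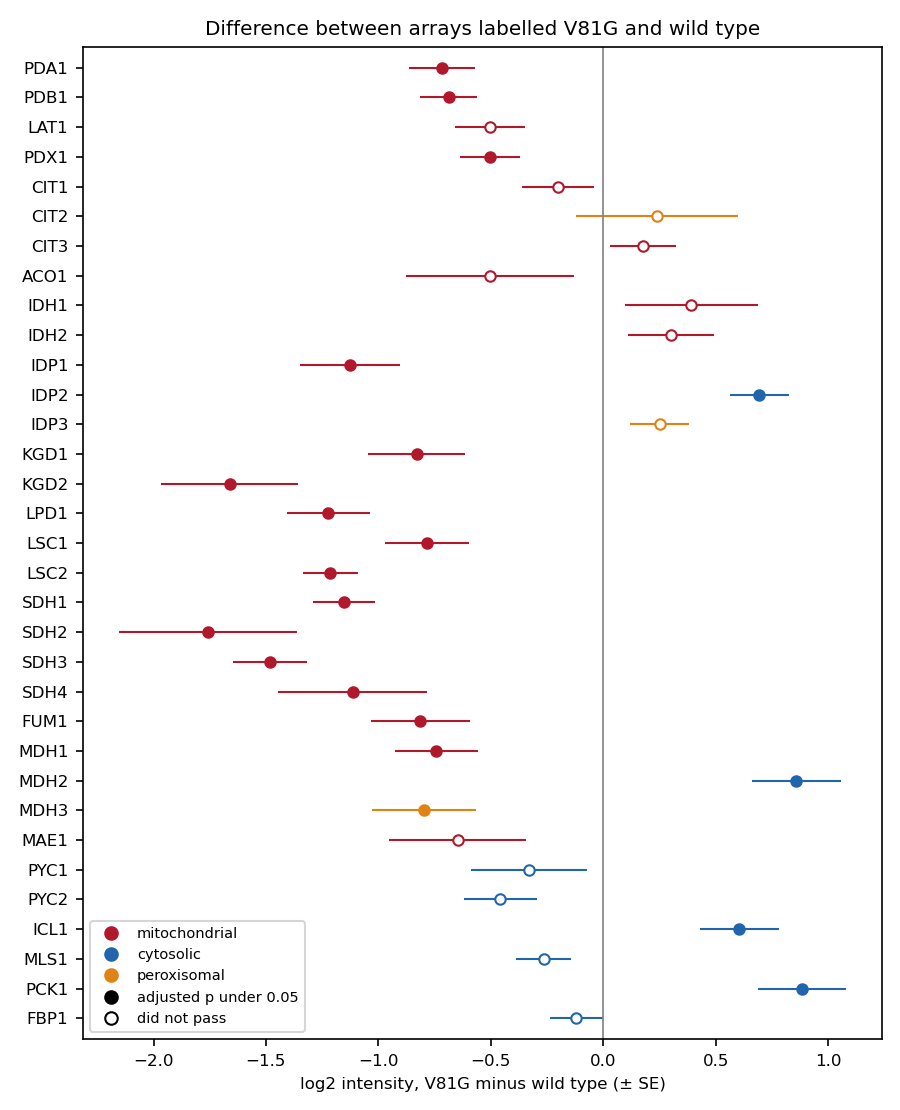
Each point is the log2 difference in intensity of a gene, V81G minus wild type, with its standard error, over 4 arrays per group, in pathway order and coloured by the location of the protein; filled points passed at adjusted p under 0.05. The 16 filled points left of 0 are mitochondrial except MDH3, and the 4 filled points right of 0 (MDH2, IDP2, ICL1 and PCK1) are cytosolic.

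Pyruvate dehydrogenase was lower throughout, with 3 of its 4 genes past the threshold. PDA1 encodes the alpha subunit of its first enzyme, E1, and read 11.85, 12.03, 11.85 and 11.63 in the arrays labelled V81G 1 to 4, against 12.48, 12.30, 12.64 and 12.80 in those labelled wild type. PDB1, the beta subunit of E1, read 11.65, 11.72, 11.40 and 11.46 in V81G, against 12.09, 12.24, 12.35 and 12.30 in wild type. The groups did not overlap for either, and the differences were close, -0.72 ± 0.15 for PDA1 (adjusted p = 0.0089) and -0.69 ± 0.13 for PDB1 (adjusted p = 0.0050). PDX1, which anchors E3 to the complex, stood out for its small spread in V81G, at 10.65, 10.69, 10.60 and 10.67, against 11.43, 11.04, 11.20 and 10.94 in wild type. It fell by 0.50 ± 0.13 (adjusted p = 0.0273). LAT1, the acetyltransferase core, differed by as much, -0.50 ± 0.16, without passing (adjusted p = 0.0528), and it passed when the replicate number (adjusted p = 0.0243) or the day (adjusted p = 0.0209) was blocked on. The fall of PDX1 did not pass when any single V81G array, wild type 1 or wild type 3 was left out (adjusted p = 0.0527 to 0.0722). LPD1, the E3 subunit shared with alpha-ketoglutarate dehydrogenase, is given below with that enzyme.

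CIT1, ACO1, IDH1 and IDH2, which carry the cycle from acetyl-CoA to alpha-ketoglutarate, did not pass in either direction. IDP1, the NADP-dependent mitochondrial isocitrate dehydrogenase, also makes alpha-ketoglutarate. It fell (adjusted p = 0.0072) and is given below with its isoenzymes. CIT1, the mitochondrial citrate synthase, read 13.94, 13.81, 13.74 and 13.63 in the arrays labelled V81G, against 14.39, 13.91, 13.88 and 13.74 in those labelled wild type, a difference of -0.20 ± 0.16 (adjusted p = 0.459). The groups overlapped, and the day 2 arrays were the lower ones in both. ACO1, aconitase, read 12.59, 12.99, 14.20 and 14.34 in V81G, against 13.72, 14.00, 14.01 and 14.40 in wild type. Its V81G arrays thus split by day, with both day 1 arrays below every wild-type array and both day 2 arrays within or near their range, and over all arrays it differed by -0.50 ± 0.37 (adjusted p = 0.431). IDH1 and IDH2 encode the regulatory and catalytic subunits of the NAD-dependent isocitrate dehydrogenase. IDH1 read 12.16, 11.91, 13.28 and 12.96 in V81G, against 12.48, 12.15, 11.84 and 12.28 in wild type. IDH2 read 14.04, 14.17, 14.68 and 14.89 in V81G, against 14.07, 14.11, 14.16 and 14.23 in wild type. For both, the day 2 V81G arrays were the highest of all 8, and the differences over all arrays were 0.39 ± 0.29 (adjusted p = 0.438) and 0.30 ± 0.19 (adjusted p = 0.348).

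From alpha-ketoglutarate onward the picture was different. All 11 genes that carry the cycle from alpha-ketoglutarate to oxaloacetate fell, with a median difference of -1.15, and the arrays of the groups did not overlap for any of them. The cycle was split at alpha-ketoglutarate after the values were seen, and IDP1, which fell, was not counted in the first stretch. The contrast between the 2 stretches is thus a description and was not tested. Beside them, the 5 transcripts of the mitochondrial genome read here were lower except COX3. OLI1, COX1 and ATP6, which encode subunits of ATP synthase and cytochrome c oxidase, differed by -4.33 ± 0.18, -3.44 ± 0.16 and -4.55 ± 0.12. COB, cytochrome b, differed by -1.48 ± 0.38 (adjusted p = 0.0256, up to 0.0765 without single arrays). OLI1, COX1 and COB have 2, 3 and 2 probe sets, and only the brightest of each is given. ATP6 and COB averaged 7.47 and 7.75 in the arrays labelled V81G, under 9.03, where background can shrink a difference. COX3, another mitochondrially encoded oxidase subunit, was higher, by 1.12 ± 0.41, and did not pass (adjusted p = 0.0956), while it passed when the replicate number (adjusted p = 0.0105) or the day (adjusted p = 0.0022) was blocked on. The part that these transcripts have in the nuclear result was not tested.

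The alpha-ketoglutarate dehydrogenase complex fell in all 3 subunits. KGD2, its succinyltransferase, read 11.25, 11.39, 10.27 and 10.05 in the arrays labelled V81G, against 12.33, 12.09, 12.48 and 12.71 in those labelled wild type. It fell by 1.66 ± 0.30 (3.16-fold, adjusted p = 0.0049), and the day 2 V81G arrays were the lowest. LPD1, dihydrolipoamide dehydrogenase, read 13.11, 12.79, 12.73 and 12.18 in V81G, against 13.89, 13.92, 13.87 and 14.01 in wild type, where the 4 arrays lay within a narrow band. It fell by 1.22 ± 0.19 (2.33-fold, adjusted p = 0.0019). KGD1, the decarboxylating subunit, read 13.08, 13.40, 12.43 and 12.56 in V81G, against 13.67, 13.51, 13.68 and 13.92 in wild type. Its highest V81G array came close to the lowest wild-type one, and the difference was -0.83 ± 0.22 (adjusted p = 0.0256). The call of KGD1 did not hold without V81G 3, V81G 4, wild type 1, wild type 3 or wild type 4 (adjusted p = 0.0576 to 0.0758), or after quantile normalisation (adjusted p = 0.0868).

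Succinyl-CoA ligase, which makes a nucleoside triphosphate as it releases succinate, fell in both subunits. LSC2, the beta subunit, had the most even values of the cycle, at 11.45, 11.40, 11.62 and 11.37 in the arrays labelled V81G, against 12.56, 12.59, 12.74 and 12.82 in those labelled wild type. Its fall of 1.21 ± 0.12 (2.32-fold, adjusted p = 2.2e-04) had the smallest adjusted p of the 33 genes. LSC1, the alpha subunit, read 11.47, 11.67, 10.91 and 11.06 in V81G, against 12.02, 11.88, 12.04 and 12.31 in wild type. It fell by 0.78 ± 0.19 (adjusted p = 0.0170), and the adjusted p was 0.0512 without wild type 4.

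All 4 genes of succinate dehydrogenase, the enzyme that belongs both to the cycle and to the respiratory chain, fell. SDH2, the iron-sulfur subunit, read 13.01, 13.01, 11.20 and 11.53 in the arrays labelled V81G, against 13.92, 13.77, 13.92 and 14.17 in those labelled wild type. The 4 wild-type arrays were close together, and the V81G arrays fell into a day 1 pair and a lower day 2 pair. At 1.76 ± 0.40 (3.38-fold, adjusted p = 0.0136) it was the largest fall among the 33 genes. SDH3, a membrane anchor, read 11.48, 11.17, 10.71 and 11.18 in V81G, against 12.73, 12.55, 12.53 and 12.67 in wild type, and fell by 1.48 ± 0.17 (2.79-fold, adjusted p = 3.9e-04). SDH1, the flavoprotein subunit, read 12.34, 12.28, 11.97 and 11.89 in V81G, against 13.28, 13.24, 13.18 and 13.39 in wild type, and fell by 1.15 ± 0.14 (2.22-fold, adjusted p = 5.4e-04). These 2 subunits lay low in V81G on both days. SDH4, the other membrane anchor, read 13.29, 13.19, 11.95 and 11.89 in V81G, against 13.78, 13.34, 13.83 and 13.83 in wild type. Its day 1 V81G arrays lay just under wild type 2, and over all arrays it fell by 1.11 ± 0.33 (adjusted p = 0.0438). Blocking on the replicate number gave SDH4 an adjusted p of 0.0510, quantile normalisation gave 0.1137, and it was 0.0998 to 0.114 without V81G 3, V81G 4, wild type 1, wild type 3 or wild type 4.

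FUM1, fumarase, whose protein is also found in the cytosol, read 12.68, 12.33, 13.12 and 11.99 in the arrays labelled V81G, against 13.47, 13.23, 13.31 and 13.36 in those labelled wild type. V81G 3 lay near the wild-type arrays and the others well below them, and the difference was -0.81 ± 0.22 (adjusted p = 0.0295). That call did not hold without V81G 2, V81G 4, wild type 1, wild type 3 or wild type 4 (adjusted p = 0.0607 to 0.0860), or after quantile normalisation (adjusted p = 0.079). MDH1 closes the cycle and is described with its isoenzymes.

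**Figure D2:**
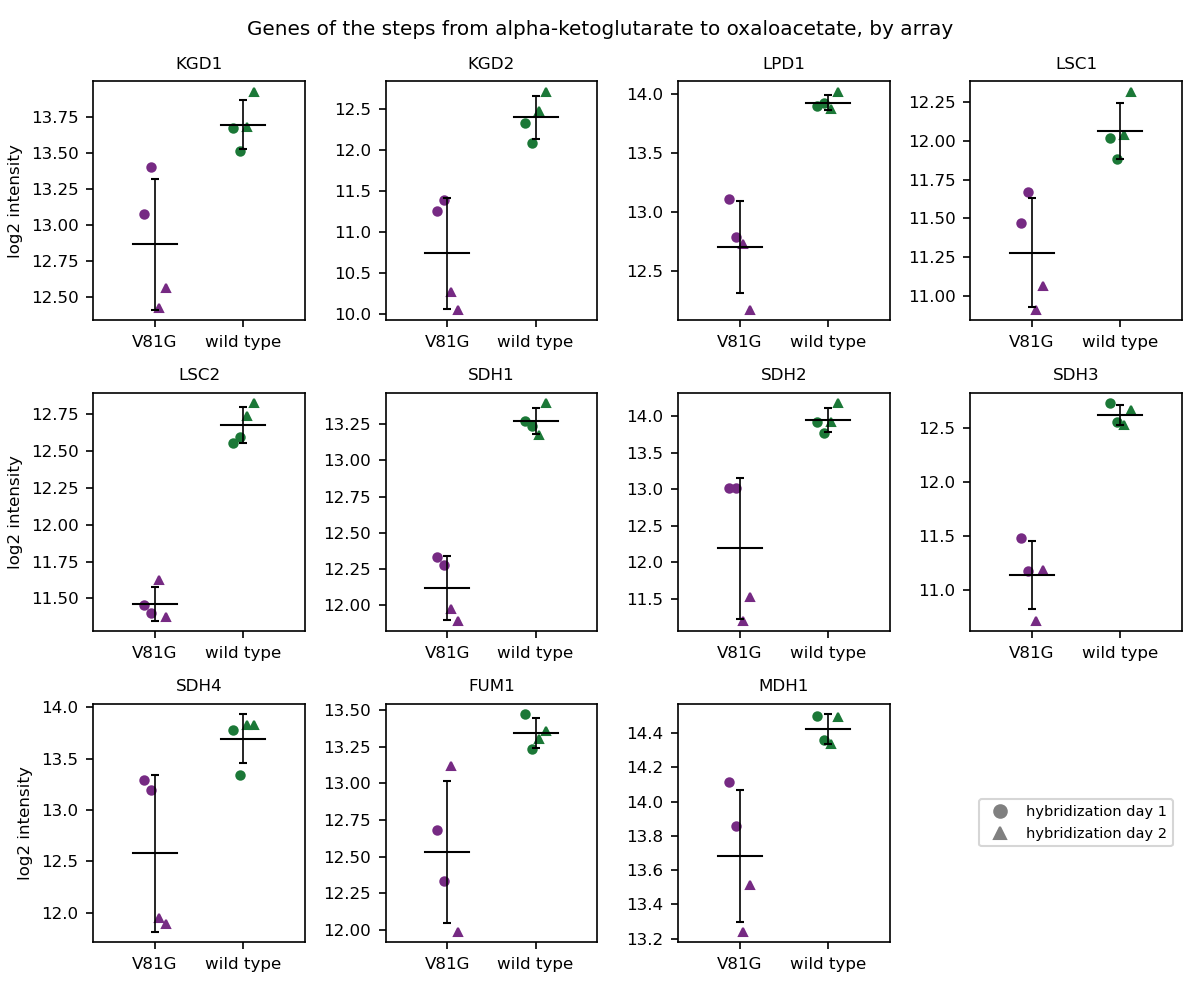
Log2 intensity of the 11 genes from alpha-ketoglutarate to oxaloacetate in each array, V81G left and wild type right, circles for hybridization day 1 and triangles for day 2; horizontal lines are means and bars ± 1 SD (n = 4). No V81G array reaches a wild-type array in any panel, and in KGD2, SDH2 and SDH4 the V81G triangles lie well below the V81G circles.

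The forms of malate dehydrogenase moved in different directions. MDH1, the mitochondrial form, read 14.11, 13.86, 13.24 and 13.51 in the arrays labelled V81G, against 14.50, 14.36, 14.34 and 14.50 in those labelled wild type. MDH2, the cytosolic form used in gluconeogenesis, read 12.92, 12.26, 12.98 and 13.24 in V81G, against 11.93, 11.88, 12.01 and 12.14 in wild type. Neither pair of groups overlapped: MDH1 fell by 0.74 ± 0.19 (adjusted p = 0.0215) and MDH2 rose by 0.86 ± 0.20 (adjusted p = 0.0149). MDH3, the peroxisomal form, which regenerates NAD for fatty acid oxidation, read 10.90, 11.01, 10.25 and 10.41 in V81G, against 11.54, 10.93, 11.46 and 11.83 in wild type. It went with MDH1 rather than MDH2, with a fall of 0.80 ± 0.23 (adjusted p = 0.0402), although wild type 2 lay below V81G 2. Its adjusted p was 0.0619 in the fit that blocked on the replicate number, and 0.0857 to 0.111 without V81G 3, V81G 4, wild type 1, wild type 3 or wild type 4. The call of MDH1 did not hold without V81G 4, wild type 1 or wild type 4 (adjusted p = 0.0587 to 0.0644), or after quantile normalisation (adjusted p = 0.1177).

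The NADP-dependent isocitrate dehydrogenases, which supply NADPH, also differed by form. IDP1, the mitochondrial form, read 10.94, 10.74, 11.57 and 11.46 in the arrays labelled V81G, against 12.09, 12.00, 12.50 and 12.62 in those labelled wild type. IDP2, the cytosolic form, read 11.34, 11.58, 11.59 and 11.69 in V81G, against 10.73, 10.93, 10.76 and 11.02 in wild type. IDP1 fell by 1.13 ± 0.22 (2.18-fold, adjusted p = 0.0072) and IDP2 rose by 0.69 ± 0.13 (1.62-fold, adjusted p = 0.0055), with no overlap in either. IDP3, the peroxisomal form needed to break down some unsaturated fatty acids, read 9.31, 9.44, 9.11 and 9.04 in V81G, against 8.92, 8.95, 9.10 and 8.93 in wild type. Its groups overlapped, its wild-type mean lay under 9.03, and the difference of 0.25 ± 0.13 did not pass (adjusted p = 0.237).

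None of the citrate synthase genes passed. CIT2, the peroxisomal form, read 11.32, 11.25, 12.75 and 12.33 in the arrays labelled V81G, against 11.11, 11.46, 11.94 and 12.17 in those labelled wild type. The day 2 arrays were the higher ones in both groups, and the difference of 0.24 ± 0.36 did not pass (adjusted p = 0.728). CIT3, a minor mitochondrial form, averaged 8.43 ± 0.23 in V81G and 8.26 ± 0.13 in wild type (SD, n = 4 each), both under 9.03, and its difference of 0.18 ± 0.15 did not pass (adjusted p = 0.492).

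**Figure D3:**
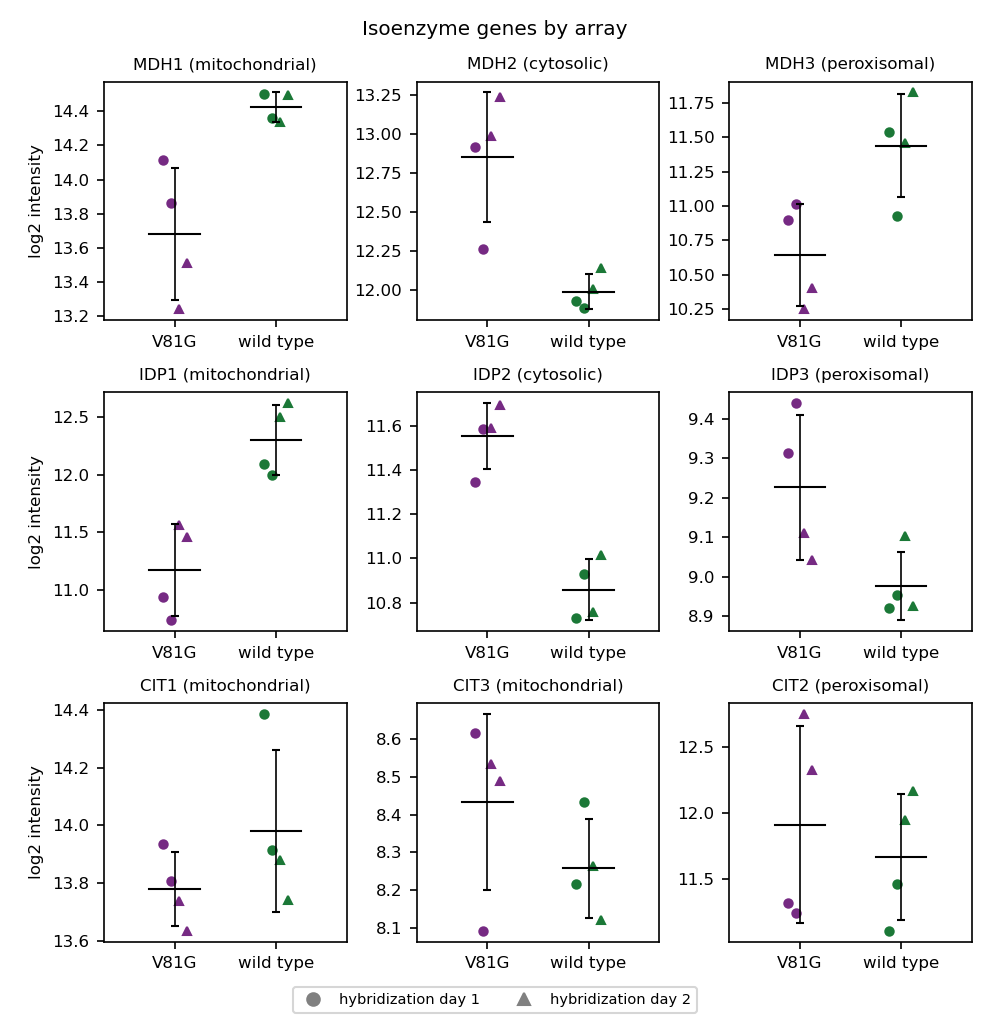
Log2 intensity of the malate dehydrogenase, NADP-dependent isocitrate dehydrogenase and citrate synthase genes in each array, V81G left and wild type right, circles for hybridization day 1 and triangles for day 2, with means and ± 1 SD (n = 4). The cytosolic forms MDH2 and IDP2 are higher in every V81G array than in any wild-type array, and the mitochondrial forms MDH1 and IDP1 are lower.

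To compare compartments directly, the log2 value of the mitochondrial form less that of the other was taken in each array. Such a ratio shows unequal change and does not say which gene changed. For IDP1 against IDP2 it was -0.40, -0.85, -0.02 and -0.24 in the arrays labelled V81G, against 1.36, 1.07, 1.74 and 1.60 in those labelled wild type. The gap between the groups was -1.82 ± 0.23 and was almost equal on the 2 days, at -1.84 and -1.80. For MDH1 against MDH2 the values were 1.20, 1.60, 0.26 and 0.28 in V81G, against 2.57, 2.48, 2.33 and 2.35 in wild type, a gap of -1.60 ± 0.34 that was -1.13 on day 1 and -2.07 on day 2. For IDP1 against IDP3 the gap was -1.38 ± 0.32, with -1.64 and -1.11 on the 2 days. In these 3 pairs the groups did not overlap and each gave p = 0.0286 in the exact permutation test over arrays (two-sided), the smallest that 4 against 4 allows. After Benjamini-Hochberg adjustment over the 6 pairs the exact test gave an adjusted p of 0.0571 for each, which did not pass. With only 3 pairs at the smallest p, no adjusted p under 0.0571 was possible, however large the gaps.

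In the other pairs the groups overlapped. The gap was 0.05 ± 0.18 for MDH1 against MDH3 (exact permutation p = 0.8286, adjusted p = 0.886), with -0.17 on day 1 and 0.28 on day 2. For CIT1 against CIT2 it was -0.44 ± 0.56 (exact permutation p = 0.486, adjusted p = 0.729), between -0.12 without wild type 1 and -0.69 without V81G 1. Other arrays moved it by over 1.5 times too, to -0.15 without V81G 3, -0.25 without V81G 4, -0.67 without V81G 2 and -0.69 without wild type 4. For CIT3 against CIT2 it was -0.06 ± 0.43 (exact permutation p = 0.886, adjusted p = 0.886). The sign of the MDH1 and MDH3 gap turned without V81G 1 (-0.0042) or wild type 4 (-0.05). That of CIT3 and CIT2 turned without V81G 3 (0.18), V81G 4 (0.06), wild type 1 (0.11) or wild type 2 (0.06).

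**Figure D4:**
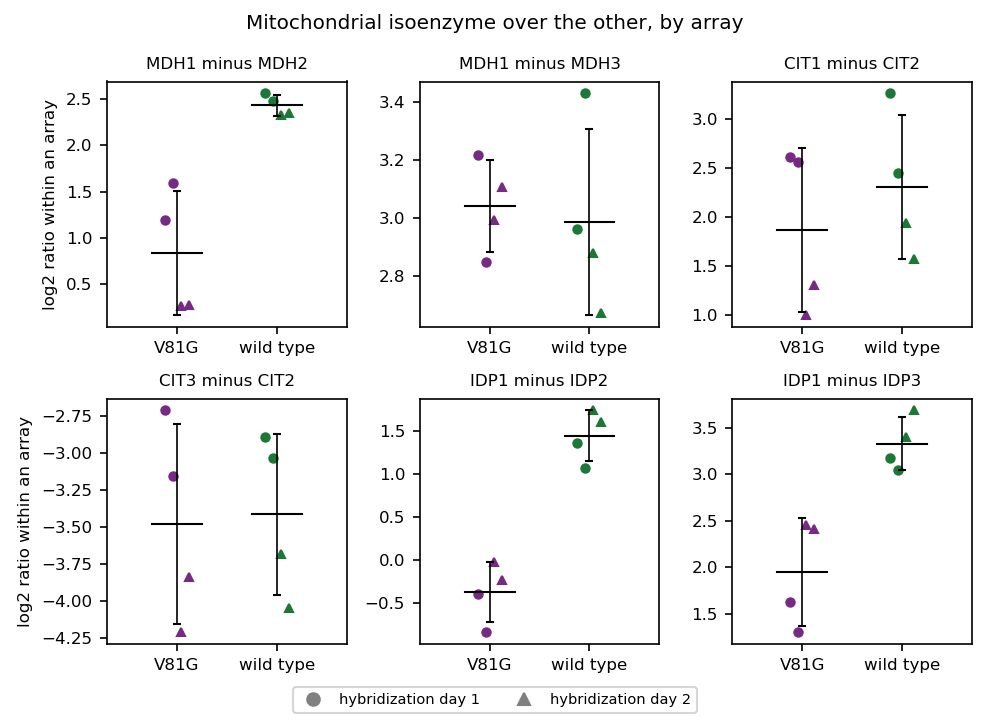
Log2 ratio of a mitochondrial isoenzyme over a cytosolic or peroxisomal one within each array, V81G left and wild type right, circles for hybridization day 1 and triangles for day 2, with means and ± 1 SD (n = 4). The groups are apart for MDH1 minus MDH2, IDP1 minus IDP2 and IDP1 minus IDP3, and overlap for the other pairs.

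Beside the cycle, genes for making glucose and for the glyoxylate cycle did not move as a block. PCK1, phosphoenolpyruvate carboxykinase, the committed step of gluconeogenesis, read 12.12, 11.56, 11.51 and 11.11 in the arrays labelled V81G, against 10.60, 10.69, 10.67 and 10.81 in those labelled wild type. It rose by 0.88 ± 0.20 (1.84-fold, adjusted p = 0.0127) and had the largest rise of the 33 genes. FBP1, fructose-1,6-bisphosphatase, the other gluconeogenic gene, averaged 8.60 ± 0.05 in V81G and 8.73 ± 0.13 in wild type (SD, n = 4 each), under 9.03 in both groups. Its difference of -0.12 ± 0.12 did not pass (adjusted p = 0.563).

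ICL1, isocitrate lyase, which opens the glyoxylate cycle, read 10.89, 10.84, 10.71 and 11.01 in the arrays labelled V81G, against 10.16, 9.82, 10.47 and 10.58 in those labelled wild type. It rose by 0.60 ± 0.18 (adjusted p = 0.0404), and the rise lost its call when any array but wild type 4 was left out (adjusted p = 0.050 to 0.107), after quantile normalisation (adjusted p = 0.0579) or with array medians centred (adjusted p = 0.0682). MLS1, malate synthase, the next enzyme of that cycle, read 8.78, 8.62, 8.67 and 8.80 in V81G, against 8.82, 9.14, 9.07 and 8.89 in wild type. Both means lay under 9.03. The groups were just apart, and the difference of -0.27 ± 0.12 did not pass (adjusted p = 0.184).

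The genes that refill or bypass the cycle were lower on average and did not pass. PYC1 and PYC2 encode cytosolic pyruvate carboxylases, which make oxaloacetate. PYC1 averaged 11.68 ± 0.54 in V81G and 12.01 ± 0.27 in wild type (SD, n = 4 each), a difference of -0.33 ± 0.26 (adjusted p = 0.459). PYC2 read 11.73, 11.85, 11.48 and 11.47 in V81G, against 11.87, 11.86, 12.38 and 12.25 in wild type, a difference of -0.46 ± 0.16 (adjusted p = 0.0873). V81G 2 lay just under the day 1 wild-type arrays, and the day 2 groups were clearly apart. MAE1, the mitochondrial malic enzyme, which turns malate into pyruvate, read 12.57, 12.47, 13.34 and 13.77 in V81G, against 13.36, 13.38, 13.92 and 14.09 in wild type. Day 2 was higher in both groups and V81G was lower on each day, so the difference of -0.65 ± 0.30 (adjusted p = 0.189) passed when the replicate number (adjusted p = 0.0193) or the day (adjusted p = 0.0082) was blocked on.

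The size of the difference depended on the hybridization day for some members. A test of the day 2 difference less the day 1 difference passed for 3 of the 33 genes, all with a lower difference on day 2, where 1.86% of all genes passed and 1.59% in that direction (limma interaction term). SDH2 differed by -0.83 on day 1 and -2.68 on day 2 (change -1.85 ± 0.24, adjusted p = 0.0129). KGD2 differed by -0.89 and -2.44 (change -1.55 ± 0.23, adjusted p = 0.0228), and SDH4 by -0.32 and -1.91 (change -1.59 ± 0.24, adjusted p = 0.0228). In these genes the wild-type means of the days differed by 0.20, 0.39 and 0.27, and the V81G means by -1.65, -1.16 and -1.32. Left-out arrays ended these calls: SDH2 without V81G 1, 2 or 3 or wild type 2 or 4 (adjusted p = 0.050 to 0.0756), KGD2 without any V81G array or wild type 2 or 4 (adjusted p = 0.0761 to 0.112), and SDH4 without any V81G array or wild type 2, 3 or 4 (adjusted p = 0.0578 to 0.114).

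The entry steps went the other way between days without passing that test. IDH1 differed by -0.28 on day 1 and 1.06 on day 2 (change 1.34 ± 0.30, adjusted p = 0.0777), and ACO1 by -1.07 and 0.06 (change 1.13 ± 0.29, adjusted p = 0.109). Fitted on 1 day alone, with 2 arrays a group, IDH1 and IDH2 passed on day 2 as rises (adjusted p = 0.0234 and 0.0397) and PYC2 and LAT1 as falls (-0.84 and -0.56, adjusted p = 0.0127 and 0.0364). ACO1 and MAE1 passed on day 1 as falls (adjusted p = 0.030 and 0.0226). PCK1 and ICL1 passed on day 1 (1.19 and 0.87, adjusted p = 0.0285 and 0.0337) and not on day 2 (0.57 and 0.34, adjusted p = 0.0800 and 0.189). MDH2 and IDP2 passed on day 2 (1.03 and 0.76, adjusted p = 0.0109 and 0.0245) and not on day 1 (0.68 and 0.63, adjusted p = 0.143 and 0.0728). For these 4 cytosolic genes the change between days did not pass (adjusted p = 0.353 to 0.830). What set the days apart was not tested.

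**Figure D5:**
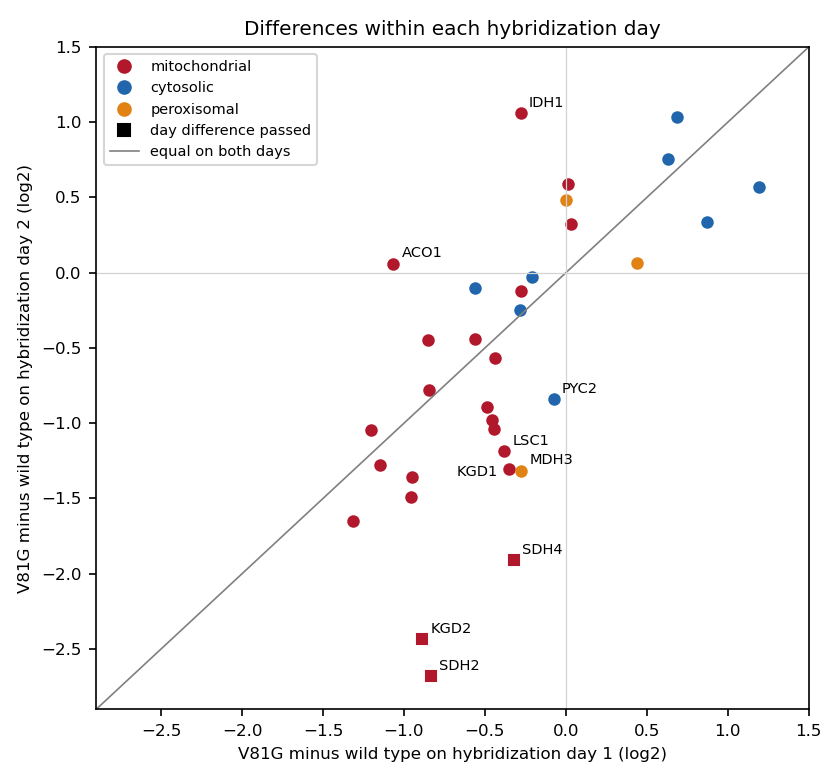
Log2 difference V81G minus wild type of each of the 33 genes on hybridization day 1 (horizontal axis) and day 2 (vertical axis), 2 arrays per group and day, coloured by the location of the protein; squares mark genes whose change between days passed and the grey line marks equal differences. SDH2, KGD2 and SDH4 lie far below the line, while IDH1 and ACO1 lie above it.

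Genes that assemble, regulate or supply these enzymes were read from 5 lists with 62 measured members, of which 14 fell, 6 rose and 42 did not pass, with a median difference of -0.16. Over all genes 12.3% fell and 9.21% rose, together 21.5%. Blocking on the replicate number called 24 of the 62, where 23.7% of all genes were called. Among assembly factors and paralogous enzymes 5 of 13 fell and 1 rose. SDH8, an assembly factor of succinate dehydrogenase, fell by 1.23 ± 0.22 (adjusted p = 0.0044) and KGD4, a small subunit that recruits E3 to alpha-ketoglutarate dehydrogenase, fell by 1.05 ± 0.21 (adjusted p = 0.0083). SDH5 and SDH7, further assembly factors of succinate dehydrogenase, and OSM1, a fumarate reductase, fell by 0.75 ± 0.19, 0.55 ± 0.14 and 0.68 ± 0.19. The calls of these last 3 were lost without certain single arrays: SDH5 without V81G 3 or 4 or wild type 1 or 4 (adjusted p = 0.0550 to 0.0617), SDH7 without V81G 1 or 2 or wild type 1 or 4 (adjusted p = 0.0582 to 0.0678), and OSM1 without any but V81G 2 and wild type 3 (adjusted p = 0.0532 to 0.0898). The paralogs SDH9, SHH3 and SHH4 of succinate dehydrogenase subunits differed by -0.05 ± 0.18, 0.41 ± 0.26 and 0.05 ± 0.18 and did not pass. DAL7, a second malate synthase, used in allantoin breakdown, rose by 1.37 ± 0.15 (adjusted p = 3.7e-04), where MLS1 did not.

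Of the 12 mitochondrial carriers 3 rose and 9 did not pass, where 9.21% of all genes rose and 12.3% fell, together 21.5%. Blocking on the replicate number called 6 of the 12, where 23.7% of all genes were called. It added falls of YHM2 (-0.64, adjusted p = 0.0223), OAC1 (-0.50, adjusted p = 0.0404) and MPC3 (-0.51, adjusted p = 0.0482), which carry citrate and oxoglutarate, oxaloacetate, and pyruvate. CRC1, the carnitine carrier, rose by 1.64 ± 0.21 (3.12-fold, adjusted p = 6.7e-04), ODC2, which exchanges oxodicarboxylates such as alpha-ketoglutarate, by 1.10 ± 0.20 (adjusted p = 0.0050), and CTP1, the citrate carrier, by 0.76 ± 0.13 (adjusted p = 0.0038). ODC1, the paralog of ODC2, differed by -0.12 ± 0.14 (adjusted p = 0.647). Among 17 enzymes of acetyl-CoA, carnitine and glutamate metabolism 6 fell and 2 rose, where 12.3% and 9.21% of all genes did. Blocking on the replicate number added a fall of GLT1, glutamate synthase (-0.58, adjusted p = 0.0131), and a rise of YAT2, a carnitine acetyltransferase (0.43, adjusted p = 0.0362). ALD4, mitochondrial acetaldehyde dehydrogenase, differed by -1.30 ± 0.40 without overlap and did not pass (adjusted p = 0.0520). Its difference was -0.34 on day 1 and -2.26 on day 2, and the interaction test passed (change -1.92 ± 0.27, adjusted p = 0.0195). That call was lost without any V81G array or wild type 3 or 4 (adjusted p = 0.0578 to 0.0933). ALD6, cytosolic acetaldehyde dehydrogenase, fell by 1.15 ± 0.15, ACS2, the acetyl-CoA synthetase of glucose-grown cells, by 1.04 ± 0.16, GDH1, which makes glutamate from alpha-ketoglutarate, by 0.97 ± 0.12, and ACH1, a mitochondrial CoA transferase, by 0.88 ± 0.18 (adjusted p = 6.5e-04 to 0.0094). GDH2, which runs the reverse reaction, rose by 0.92 ± 0.17 (adjusted p = 0.0048) and CAT2, carnitine acetyltransferase, by 0.69 ± 0.14 (adjusted p = 0.0073).

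In the list of pyruvate dehydrogenase regulators and lipoate genes 2 of 8 fell, and 1 of 8 was called when the replicate number was blocked on, where 21.5% and 23.7% of all genes were called. PKP1, a kinase that inactivates the complex, fell by 0.51 ± 0.14 (adjusted p = 0.0368) and LIP5, lipoate synthase, by 0.36 ± 0.11 (adjusted p = 0.0496). LIP5 had an adjusted p of 0.0682 in the fit that blocked on the replicate number and lost its call without any single array (adjusted p = 0.0684 to 0.127), as PKP1 did without any array but wild type 2 (adjusted p = 0.0535 to 0.101). Of 12 regulators only CAT8, an activator of gluconeogenic genes including PCK1, ICL1 and MLS1, passed. It fell by 1.09 ± 0.17 (adjusted p = 0.0025), with a V81G mean of 8.26 under 9.03. RTG1, RTG2 and RTG3 differed by 0.16 ± 0.19, -0.40 ± 0.16 and -0.18 ± 0.15, with RTG1 under 9.03 in both groups, and HAP4, the limiting subunit of the Hap complex, by 0.23 ± 0.19 (adjusted p = 0.494). None of these 4 passed.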

How the data were processed

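Intensities, 1 per probe set and array, were used as deposited on a linear scale between 89.9 and 44207; RMA is named without a version, per the submitters' processing notes. The chip type is YG_S98, per the file headers of the run sheets. No source used here says whether values were scaled or centred after RMA, and median intensities were 1098 to 1189. Values of day 1 arrays carry up to 5 decimals and those of day 2 up to 4, and none says whether the days were processed apart. A log2 transform was applied, 60 control probe sets were left out, and the other 9275 were tested two-sided by limma 3.58.1 (R 4.3.3; functions lmFit, eBayes) with Benjamini-Hochberg adjustment over all of them. Single symbols (6504 probe sets, 5656 genes) were updated with RefSeq's R64 gene table; 328 probe sets with several symbols and 2443 not listed stayed unnamed. The brightest probe set by mean stood for a gene. Isoenzyme ratios were tested by exact permutation over arrays.

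Of the related genes LIP3 is listed as a synonym of AIM22. The members and lists were chosen with earlier results of these data known. All members are named, and of related genes those called, up to 4 rises and 4 falls per list. SDH7, SDH9, SHH3, SHH4, ODC1, YHM2, OAC1, MPC3, GLT1, YAT2, ALD4 and the regulators that did not pass were picked once their values had been seen. Titles number biological replicates of a strain, while the series' design names 4 isogenic strains per genotype. Deviations from the group means of arrays with the same replicate number correlated at 0.24, 0.23, 0.44 and 0.26 across probe sets. Other pairs hybridised on the same day gave 0.22 to 0.34. These correlations do not set a shared replicate number apart from a shared day, so they give no ground for a pairing by number. Blocking on the number is given as an alternative to the main fit. Alternatives covered normalisation, an offset, a filter on dim probe sets, the model, blocks, days and single arrays. The fits were also run on simulated data whose noise was drawn independently for each array. That run does not test them under the correlations within a day given above.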

Additional observations from a re-analysis of the deposited data

Results flagged for a closer look

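SDH4 in wild type 2, at 13.34, lay far below the other arrays labelled wild type (13.78 to 13.83). It was the only 1 of 78 groups of 4 values, from the 33 genes and 6 ratios, whose extreme array passed Dixon's criterion, where chance gives about 1 in 20. The difference between genotypes changed between the hybridization days, by the interaction test, in SDH2 (-1.85), SDH4 (-1.59) and KGD2 (-1.55). Each value is the day 2 difference less the day 1 difference on the log2 scale, so these genes were lower in V81G by more on day 2.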

How the results depend on the processing

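Of the 20 called members 7 kept their call and direction in all 20 alternatives (KGD2, LPD1, LSC2, SDH1, SDH2, SDH3 and IDP1), and 13 lost the call in at least 1. No called member changed direction. The number of fallen members was 10 on day 1 alone and 10 to 16 over the fits that left out 1 array, and the number of risen members was 2 on day 1 alone and 3 or 4 without 1 array. The fits without 1 array or within a day have fewer samples. The number of members past the test of a change between days was 6 with an intensity trend and 0 to 3 without 1 array. Over all 5656 genes that test called 15 with a higher and 90 with a lower difference on day 2. These numbers were 32 and 154 with the intensity trend, and 1 to 7 and 12 to 64 without 1 array. The cause of the larger number with the trend was not tested. Blocking on the replicate number left 16 falls and 4 rises. The block ended the calls of SDH4 and MDH3, added those of LAT1 and MAE1, and changed no other call among the members. Permuting within replicate numbers cannot move the isoenzyme gaps, since each number holds 1 array of each group, and can change only the p. That exact p was 0.125 for MDH1 and MDH2, for IDP1 and IDP2 and for IDP1 and IDP3. It was 0.875 for MDH1 and MDH3 and for CIT3 and CIT2, and 0.25 for CIT1 and CIT2. The smallest exact p that 4 pairs of arrays allow is 0.125.

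Over all 5656 genes, 521 rose and 696 fell, against 729 and 1146 with array weights and 403 and 417 on day 1 alone; without 1 array the falls numbered 442 to 674.

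Signs turned only among results that had not passed. On day 1 alone this was so for the gap of MDH1 and MDH3 (-0.17) and of CIT3 and CIT2 (0.0307), for CIT2 (-0.0018), for IDH1 (-0.28) and for the median of cytosolic and peroxisomal members (-0.0018, against 0.24 over all arrays), and on day 2 alone for ACO1 (0.0598). CIT1 turned with quantile normalisation (0.0134) and ACO1 with array weights (0.11). Without 1 array the range was -0.0503 to 0.204 for MDH1 and MDH3, -0.32 to 0.18 for CIT3 and CIT2, -0.0388 to 0.46 for CIT2 and -0.0388 to 0.29 for the median of cytosolic and peroxisomal members. The cause of these turns was not tested. Leaving out the dimmest 25% of probe sets removed CIT3, MLS1 and FBP1, which have no value there. Using the mean of a gene's probe sets changes no member's value, since each has 1.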
